A study of Mus musculus with 10 samples.

Results

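Apolipoproteins are the protein components of plasma lipoproteins, and Mttp encodes the transfer protein that loads lipid onto them. The genes described here were Apoa1, Apoa2, Apoa4, Apoa5, Apob, Apoc1, Apoc2, Apoc3, Apoe and Mttp, chosen by name, and 9 of these 10 had a probe set of their own among 19935 measured mouse genes. The probe set that reads Apoc2 also reads Gm44805, so Apoc2 was given no value. Total RNA came from livers dissected at 12 weeks of age from 5 wild-type mice (WT) and 5 mice lacking nucleomethylin (NML-KO), with 1 whole-transcript array per liver. Nucleomethylin is a nucleolar protein encoded by Rrp8 and linked to silencing of ribosomal RNA genes. The allele, strain, sex, feeding state and time of dissection were not given in the sources used here, and each array is named as a separate liver.

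The liver packages triglyceride and cholesterol into very low density lipoprotein on a single molecule of apolipoprotein B, in a step that needs the transfer protein made from Mttp. Smaller apolipoproteins then exchange between particles: some form the scaffold of high density lipoprotein, some speed or slow the hydrolysis of triglyceride in plasma, and apolipoprotein E is a ligand for uptake receptors. In mice as in humans many of their genes lie in clusters. Apoa1, Apoc3, Apoa4 and Apoa5 followed each other on chromosome 9 in the RefSeq gene order, and Apoc2, Apoc4, Apoc1 and Apoe on chromosome 7, with only Gm44805 lying between any of them.

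All values below are log2 of the deposited intensities, and differences are on that scale. Rrp8 lay between 7.65 and 7.90 in WT livers and between 6.65 and 7.19 in NML-KO livers, with no overlap (difference -0.88, SE 0.10, adjusted p = 0.109 by limma). The median intensity of the arrays ranged from 62.5 to 66.7 on the linear scale. Hepatocyte markers had a mean between 13.41 and 13.79 in every liver, and enterocyte markers, which would mark gut tissue, between 5.45 and 5.65. The adipocyte marker mean was 6.89 in WT 2 and between 5.50 and 5.78 in the other livers. The Kupffer cell and macrophage marker mean was highest in NML-KO 4, at 9.02, against 7.57 to 8.70 in the others.

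The livers also fell into 2 sets by Dbp, a transcription factor gene under direct control of the circadian clock. Dbp was between 9.68 and 10.23 in WT 1, WT 2 and NML-KO 1 to 3 (Dbp-high), and between 6.20 and 6.60 in WT 3 to 5, NML-KO 4 and NML-KO 5 (Dbp-low). A log2 value of 8 separated them. These sets were read from the data and are not a label of the study, so the p-values given for them describe how far these livers separate and take no account of how the sets were found.

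By genotype, none of the 9 genes passed the threshold, a Benjamini-Hochberg adjusted p of 0.05 over all genes in limma, and neither did any of the 19935 genes (0.0%). Apoa2, the second most abundant protein of high density lipoprotein, showed the widest gap relative to its spread, 1.23-fold lower in NML-KO livers. At an unadjusted p of 0.05, Apoa2 was the single member called, against 2.7% of all genes, 1.66% of them lower in NML-KO livers. The 9 genes had a median difference of -0.024, against -0.0065 over all genes, and 6 of them lay below 0. The absolute difference was at most 0.10 for each of the other 8 genes.

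The scaffold proteins of high density lipoprotein come from Apoa1 and Apoa2. Apoa2 was 13.87, 13.75, 14.17, 14.15 and 14.21 in WT 1 to 5 and 13.59, 13.69, 13.68, 13.83 and 13.88 in NML-KO 1 to 5. The genotypes overlapped, because WT 1 and WT 2 lay as low as NML-KO 4 and NML-KO 5. Within each Dbp set they did not overlap, and every NML-KO liver lay below every WT liver of its set. Across all genes 1.15% lay wholly lower in NML-KO livers in both sets, and 1.75% did so in either direction. This count was added after the values of Apoa2 were seen. The mean of Apoa2 was 14.03 ± 0.21 (SD, n = 5) in WT and 13.73 ± 0.12 (SD, n = 5) in NML-KO livers. Its difference was -0.29 (SE 0.10, unadjusted p = 0.0149, adjusted p = 0.999 by limma). With the Dbp set in the model it was -0.24 (SE 0.054, unadjusted p = 0.00133, adjusted p = 0.992 by limma), where 4.36% of all genes had an unadjusted p below 0.05. It was -0.15 (SE 0.069, unadjusted p = 0.0527 by limma) in Dbp-high and -0.32 (SE 0.069, unadjusted p = 0.00131 by limma) in Dbp-low livers, where 10.2% and 2.24% of all genes had an unadjusted p below 0.05. Over 19 alternative settings its adjusted p ran from 0.924 to 1.0.

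Apoa1 encodes the main protein of high density lipoprotein. It lay between 14.26 and 14.33 in WT livers and between 14.07 and 14.30 in NML-KO livers, so the genotypes overlapped. Its difference was -0.10 (SE 0.054, adjusted p = 0.999 by limma), and it was -0.16 in Dbp-high and -0.017 in Dbp-low livers. The difference between these 2 values was -0.14 (SE 0.096, adjusted p = 0.834 by limma).

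Among genes that act on triglyceride hydrolysis, the genotype means of Apoa5, Apoa4 and Apoc3 lay close together while livers of one genotype lay far apart, and Apoc1 had a larger difference beside a narrow WT range. Apoa5, which promotes clearance of triglyceride, averaged 11.15 ± 0.48 (SD, n = 5) in WT and 11.23 ± 0.41 (SD, n = 5) in NML-KO livers, a difference of 0.077 (SE 0.25). Apoa4, made in gut and liver and induced with lipid load, averaged 10.26 ± 0.49 and 10.29 ± 0.60 (SD, n = 5 each), a difference of 0.033 (SE 0.31). Apoc3, an inhibitor of triglyceride clearance, averaged 13.82 ± 0.38 and 13.80 ± 0.28 (SD, n = 5 each), a difference of -0.024 (SE 0.19). Apoc1, another inhibitor, averaged 13.42 ± 0.040 and 13.32 ± 0.12 (SD, n = 5 each), a difference of -0.10 (SE 0.061). Each of these 4 had an adjusted p of 0.999 by limma. With the Dbp set in the model Apoa5 stood at -0.036 (SE 0.19) and Apoc3 at 0.089 (SE 0.084), so both changed sign.

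Of the remaining genes, Apoe, the ligand for hepatic uptake, differed by -0.073 (SE 0.060) between NML-KO and WT livers. Apob and Mttp, the pair needed to form the nascent particle, differed by 0.0054 (SE 0.050) and -0.0070 (SE 0.15). All 3 had an adjusted p of 0.999 by limma. Apoe and Apoc1 lie on chromosome 7, as Rrp8 does. For none of the 9 genes did the test of a difference in genotype effect between the Dbp sets pass, with unadjusted p from 0.114 for Apoc1 to 0.772 for Apoa4 and a smallest adjusted p of 0.801 by limma. Across all genes 0 passed that test (0.0%) and 6.49% had an unadjusted p below 0.05.

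**Figure D1:**
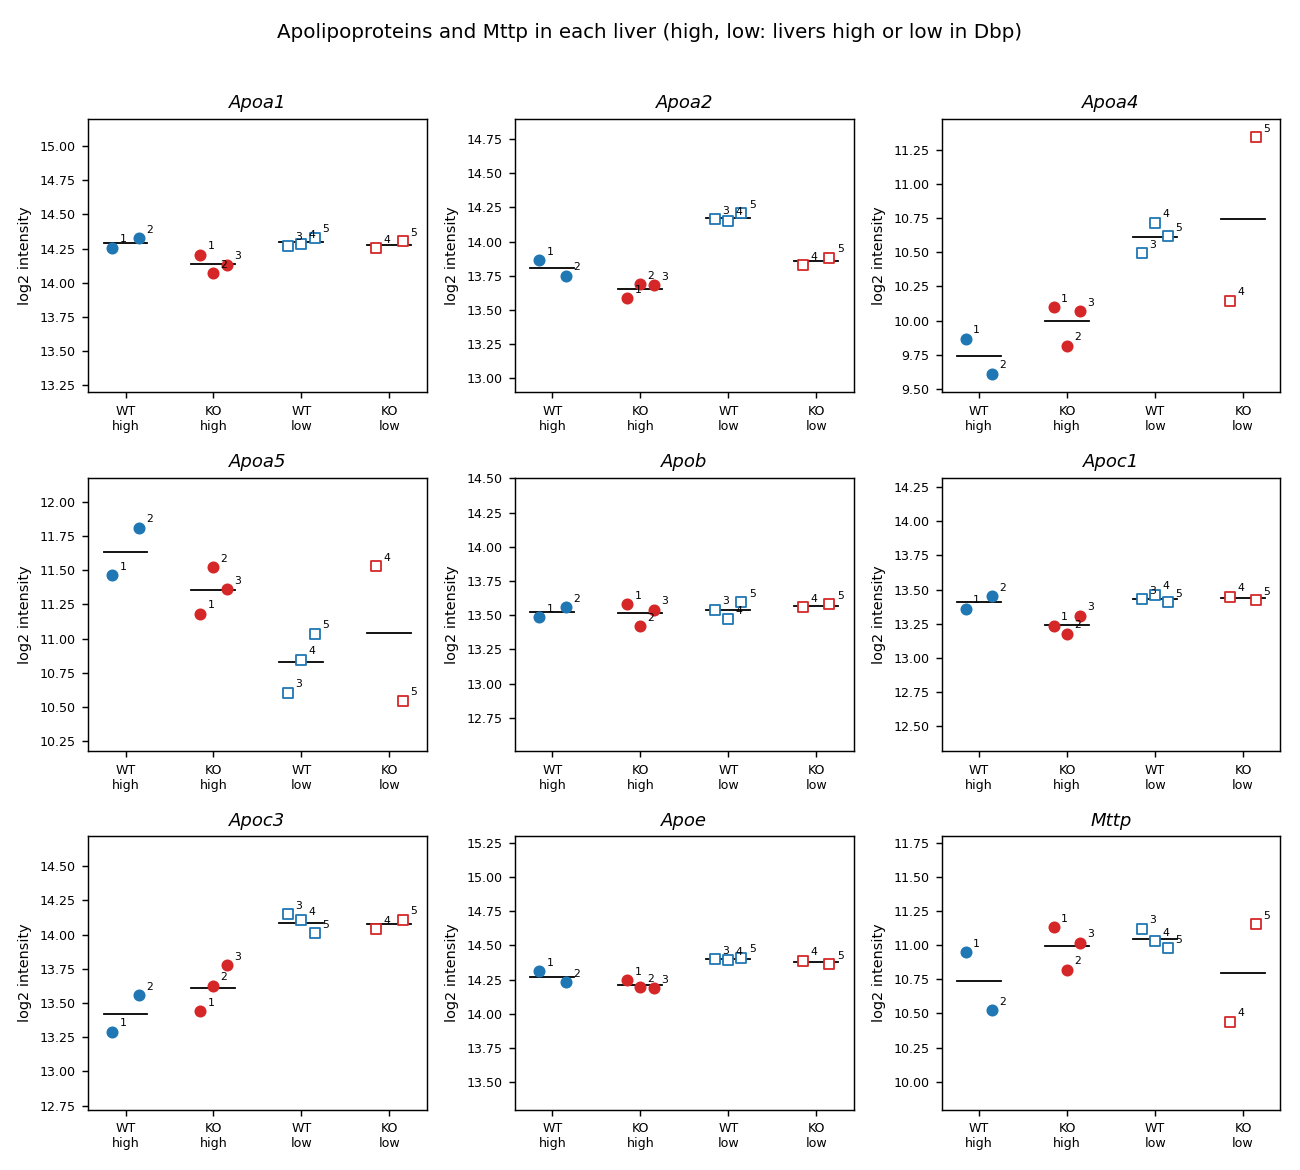
Log2 intensity of each gene in every liver, by genotype and Dbp set, with 1 point per liver, its replicate number beside it and a bar at the mean; each panel spans the same 2 log2 units. The Dbp-high and Dbp-low livers separate for Apoa4, Apoc3 and Apoe, and Apob stays within 0.18 over all 10 livers.

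Between the Dbp sets 4 of the 9 genes passed the threshold, all of them lower in Dbp-high livers: Apoa4, Apoc3, Apoa2 and Apoe. Over all genes 12.9% passed, 7.99% lower and 4.92% higher in Dbp-high livers. At the levels where these 9 genes lie the share was larger, 22.2% for means of at least 13 and 37.3% between 10 and 12. The median of the 9 genes was -0.11, against 0.024 over all genes, and Apoa5 was the single one above 0. After quantile normalization the calls over all genes were 1374 higher and 1383 lower, in place of 980 and 1593, while these 4 genes kept their sign and their call and Apoa5 also passed. The sets did not overlap for Apoa4, Apoc3 and Apoe, all lower in Dbp-high livers. Of all genes 7.12% lay wholly lower and 5.04% wholly higher there. In RNA from whole tissue, fewer cells of a type and less RNA per cell cannot be told apart.

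Apoa4 had the widest difference. It was 9.87 in WT 1, 9.61 in WT 2, and 10.10, 9.82 and 10.07 in NML-KO 1 to 3. In the Dbp-low livers it was 10.49, 10.72 and 10.62 in WT 3 to 5, 10.14 in NML-KO 4 and 11.34 in NML-KO 5. NML-KO 5 was the highest of all, and NML-KO 4 lay just above the highest Dbp-high liver. Apoa4 was thus 1.75-fold lower in Dbp-high livers (difference -0.81, SE 0.19, adjusted p = 0.0222 by limma). The difference was -1.05 without NML-KO 4 and -0.59 without NML-KO 5, both past the threshold. It missed the threshold without WT 2 (adjusted p = 0.0579 by limma) and without WT 4 (adjusted p = 0.0537 by limma).

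Apoc3 had the smallest adjusted p of the 9 genes between the sets. Its values were 13.29 and 13.56 in WT 1 and WT 2 and 13.44, 13.63 and 13.78 in NML-KO 1 to 3. In the Dbp-low livers they were 14.15, 14.11 and 14.01 in WT 3 to 5 and 14.04 and 14.11 in NML-KO 4 and NML-KO 5. All Dbp-low livers lay above all Dbp-high livers, and within the Dbp-low set the genotypes overlapped. The difference was -0.56 (SE 0.084, 1.48-fold, adjusted p = 0.00232 by limma). It stood at -0.67 among WT and -0.46 among NML-KO livers alone, where limma's adjusted p was 0.0136 and 0.0591.

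Apoa2 was 1.22-fold lower in Dbp-high livers (difference -0.29, SE 0.054, adjusted p = 0.00752 by limma), although WT 1 lay among the Dbp-low NML-KO livers. The calls of Apoa2 and Apoc3 held with each of the 10 arrays left out in turn.

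Apoe lay between 14.19 and 14.31 in Dbp-high and between 14.36 and 14.41 in Dbp-low livers. Those bands did not overlap, but the difference was small, at -0.15 (SE 0.042, 1.11-fold, adjusted p = 0.0464 by limma). The call was lost when any 1 array other than WT 1 was left out, with adjusted p from 0.0590 to 0.121 by limma. Macrophages also make apolipoprotein E. Of 12 Kupffer cell and macrophage markers 4 were called lower in Dbp-high livers, where 7.99% of all genes were. Most of these markers had means between 8 and 10, a level at which 31.3% of genes were called in either direction. The difference lay below 0 for 11 of these 12 markers, against 8471 of all 19935 genes. The mean of these markers ranged from 7.57 to 8.47 in Dbp-high and from 8.29 to 9.02 in Dbp-low livers. Their part in the Apoe values was not tested.

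Apoa5 went the other way. It was 11.46 and 11.81 in WT 1 and WT 2 and 11.18, 11.52 and 11.36 in NML-KO 1 to 3, against 10.60, 10.85 and 11.03 in WT 3 to 5. NML-KO 5 had 10.55, the lowest value, while NML-KO 4 had 11.53 and lay inside the Dbp-high range. Over all livers Apoa5 was 1.48-fold higher in the Dbp-high set (difference 0.56, SE 0.19) and did not pass (adjusted p = 0.0909 by limma). Without NML-KO 4 the difference was 0.81 (SE 0.12, adjusted p = 0.00390 by limma). This was the only 1 of the 10 left-out arrays with which Apoa5 passed. Over all 10 the difference ran from 0.43 to 0.81, with adjusted p up to 0.250 by limma. It was 0.81 among WT and 0.32 among NML-KO livers alone (adjusted p = 0.117 and 0.584 by limma). NML-KO 4 had the highest values of Saa1 and Saa2, acute phase apolipoprotein genes, at 10.83 and 13.03, against at most 8.17 and 11.05 in the other livers. Their part in the Apoa5 value was not tested.

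The promoters of Apoa4 and Apoa5 are shown because these neighbours on chromosome 9 differed in opposite directions between the Dbp sets, and that of Mttp because it followed Apoa5 inversely, as described further on. Each run gives the 250 bases before a RefSeq transcription start (assembly GRCm38.p6), read 5′ to 3′ on the strand of the gene. Capitals mark a match to any of 3 short motifs: the E-box CACGTG read by the clock activators, the D-box TTATGNAA read by DBP and its relatives, and AGGTCA, a core site of nuclear receptors such as the RORs.
Apoa4 chr9:46240594-46240843 (plus strand): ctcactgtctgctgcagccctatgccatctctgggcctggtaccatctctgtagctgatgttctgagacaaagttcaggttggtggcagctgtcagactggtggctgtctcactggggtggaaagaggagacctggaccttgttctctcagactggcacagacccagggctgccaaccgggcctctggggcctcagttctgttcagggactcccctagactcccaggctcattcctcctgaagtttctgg
Apoa5 chr9:46268358-46268607 (plus strand): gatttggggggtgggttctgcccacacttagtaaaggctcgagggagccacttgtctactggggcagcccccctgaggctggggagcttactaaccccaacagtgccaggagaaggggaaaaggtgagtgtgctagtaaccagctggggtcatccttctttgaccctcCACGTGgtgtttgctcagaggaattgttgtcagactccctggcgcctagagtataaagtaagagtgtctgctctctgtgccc
Mttp chr3:138143419-138143668 (minus strand): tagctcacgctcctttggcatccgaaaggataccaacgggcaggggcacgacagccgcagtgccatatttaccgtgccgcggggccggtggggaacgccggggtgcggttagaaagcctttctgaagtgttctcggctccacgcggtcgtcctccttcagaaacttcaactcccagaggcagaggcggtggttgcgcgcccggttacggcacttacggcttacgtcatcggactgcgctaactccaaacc

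The Apoa5 window held 1 E-box, from -82 to -77 relative to the start, and the window of its other annotated start, which overlaps the first, holds the same copy. On both strands, 6.02% of the 32851 promoter windows of this length held an E-box, 3.07% a D-box and 14.0% an AGGTCA. The windows of Apoa4 and Mttp held none of the 3. Of the 10 listed genes 8 had a sequence in the table, and among them AGGTCA was found for Apoa2 (in the window of 1 of its 2 starts) and Apoc2, the D-box for none. A match is a description of the letters and was not tested for binding.

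Apob, Apoc1, Apoa1 and Mttp did not pass between the Dbp sets. Apob, the structural protein of the particle, stayed between 13.42 and 13.60 in all 10 livers, with a difference of -0.034 (SE 0.051, adjusted p = 0.713 by limma). Apoc1 differed by -0.11 (SE 0.053, adjusted p = 0.216 by limma) and Apoa1 by -0.073 (SE 0.051, adjusted p = 0.398 by limma). The 5 Dbp-low livers lay close together for both genes, within an SD of 0.021 for Apoc1 and 0.029 for Apoa1, against 0.11 and 0.10 in Dbp-high livers. In Dbp-high livers every NML-KO liver lay below every WT liver for both genes. The share of all genes without overlap was not counted for either Dbp set alone, and with so few livers such a separation arises readily in each. In Dbp-high livers the genotype difference was -0.17 (SE 0.068, unadjusted p = 0.0389 by limma) for Apoc1 and -0.16 (SE 0.068, unadjusted p = 0.0485 by limma) for Apoa1. In that comparison 10.2% of all genes had an unadjusted p below 0.05 and none passed after adjustment. The test of a difference in genotype effect between the Dbp sets did not pass for Apoc1 or Apoa1 (adjusted p = 0.801 and 0.834 by limma). In Dbp-low livers the genotype difference was 0.0037 for Apoc1. In that set the genotypes did not overlap for Apoa2 and Apoe, both lower in NML-KO livers. The difference in spread was not tested.

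**Figure D2:**
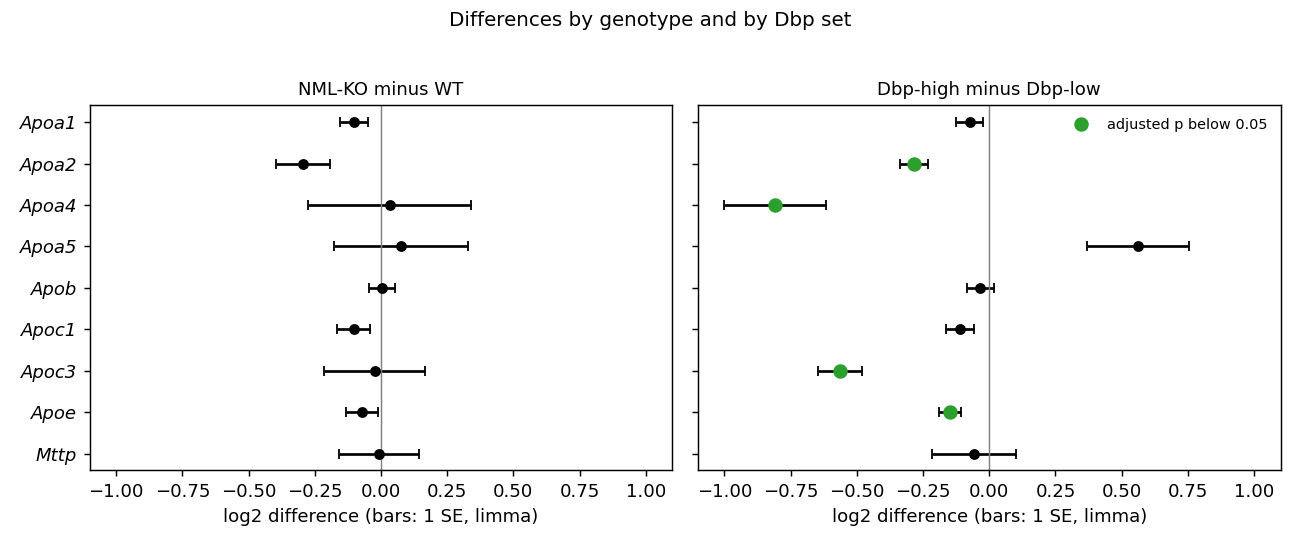
Log2 difference of each gene between NML-KO and WT livers (left) and between Dbp-high and Dbp-low livers with genotype in the model (right), with bars of 1 SE from limma over 10 arrays. Green points, Apoa2, Apoa4, Apoc3 and Apoe, passed an adjusted p of 0.05 on the right, and no gene passed on the left.

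Mttp followed neither grouping. It was 10.95 and 10.52 in WT 1 and WT 2 and 11.12, 11.03 and 10.98 in WT 3 to 5. In NML-KO 1 to 5 it was 11.13, 10.82, 11.02, 10.44 and 11.15. The low livers were WT 2, of the Dbp-high set, and NML-KO 4, of the Dbp-low set. Its Dbp set difference was -0.056 (SE 0.16, adjusted p = 0.856 by limma), at -0.31 among WT and 0.19 among NML-KO livers.

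The 2 livers lowest in Mttp were also the 2 highest in Apoa5, and within each Dbp set the order of the livers by Apoa5 was the reverse of their order by Mttp. After the mean of each Dbp set was taken off, Pearson's r between Apoa5 and Mttp was -0.96 over the 10 livers, and -0.89 over 8 livers without WT 2 and NML-KO 4. Apoa4 ran with Mttp (r = 0.78) and against Apoa5 (r = -0.80), but these fell to 0.54 and -0.56 without the same 2 livers. Apoc3 and Apoe gave -0.90 over all livers and -0.91 without them. Apoa1 and Apoc1 gave 0.78 over all livers and 0.62 without them. These are 5 of 36 pairs, singled out after all had been seen, and the points share their arrays and scaling, so they are given as a description with no test. WT 2 had the highest adipocyte marker mean and NML-KO 4 the highest macrophage marker mean, and the part of either in these values was not tested.

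**Figure D3:**
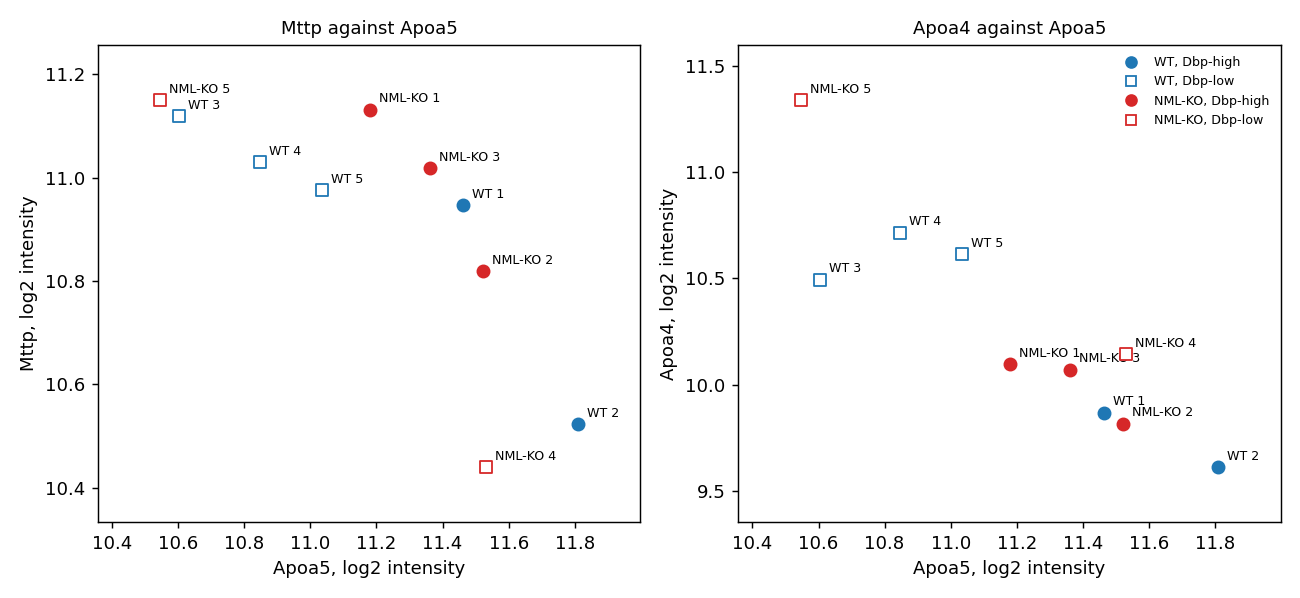
Mttp (left) and Apoa4 (right) against Apoa5 in each of the 10 livers, log2 intensity on both axes, coloured by genotype and filled for Dbp-high. Mttp falls as Apoa5 rises within each Dbp set, from 11.15 in NML-KO 5 to 10.44 in NML-KO 4 and from 11.13 in NML-KO 1 to 10.52 in WT 2.

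Probe sets near the top of the scale can be compressed, and 6 of these genes sat there. The highest value on each array was between 14.63 and 14.87. Apoe lay 0.25 to 0.65 below its array's highest value and ranked between 3 and 29 of 28815 probe sets. Apoa1 ranked between 11 and 37, Apoa2 between 20 and 97, Apoc3 between 23 and 132, Apob between 99 and 122 and Apoc1 between 112 and 144. Mttp, Apoa5 and Apoa4 lay at least 3.0 below the top.

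The 72 genes with a mean of at least 13 had a median SD within Dbp sets of 0.097, against 0.16 to 0.17 for genes with means between 6 and 12. Their median absolute difference between Dbp sets was 0.14, and 22.2% were called. For the 829 genes between 10 and 12 these were 0.27 and 37.3%, and for the 6600 genes between 6 and 8 they were 0.15 and 15.3%. For the 119 genes between 12 and 13 they were 0.19 and 30.3%, and for the 3190 genes between 8 and 10 they were 0.23 and 31.3%. The median difference was thus smaller at the top of the scale than between 8 and 13. It was near that between 6 and 8, where the SD was larger. The small differences of Apoa1, Apob, Apoc1 and Apoe lay in this top range, and the part of the scale in them was not tested. Apoc3 and Apoa2, with means of 13.81 and 13.88, spanned 1.81-fold and 1.54-fold over the 10 livers. Apoe, higher at 14.31, spanned 1.17-fold, and Apob, lower at 13.53, spanned 1.13-fold.

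**Figure D4:**
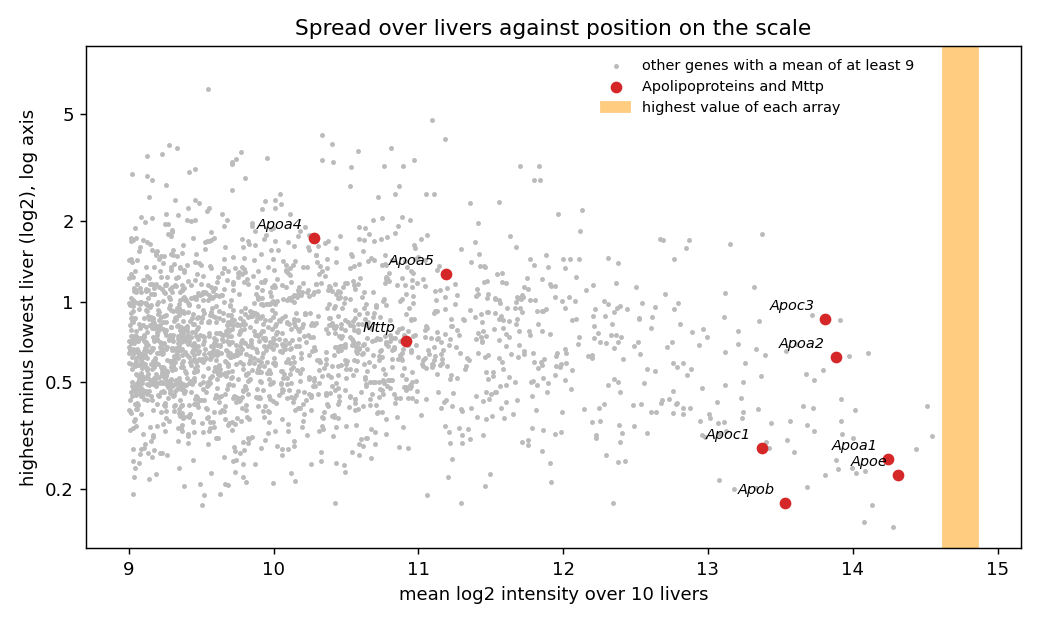
Highest minus lowest liver (log2 units, on a log axis) against mean log2 intensity over 10 livers for the 9 genes (red) and all other genes with a mean of at least 9 (grey); the band marks the highest value of each array, 14.63 to 14.87. Apob, Apoe, Apoa1 and Apoc1 span under 0.29, while Apoc3 and Apoa2, whose means lie between those of Apob and Apoa1, span 0.86 and 0.62.

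Other genes of lipoprotein metabolism were taken from 5 lists of pathway genes, and none of them passed by genotype. Over all genes 7.99% were called lower and 4.92% higher between the Dbp sets, as given above, and the list counts that follow are of genes called at the same threshold. At the levels where many of the list genes lie, the share called in either direction was larger. It was 31.3% for means between 8 and 10 and 37.3% between 10 and 12. The list of other apolipoproteins also held serum amyloid genes and Apobec1, the enzyme that edits Apob mRNA. Of its 11 measured genes 6, Apobec1 among them, were called lower in Dbp-high livers and 0 higher. Of the 11, 10 lay below 0, with a median of -0.47. The call of Apobec1 was lost without WT 1, WT 5, NML-KO 1, NML-KO 2 or NML-KO 5 (adjusted p up to 0.0681 by limma). That of Saa1 was lost without WT 4, WT 5, NML-KO 1, NML-KO 2, NML-KO 3 or NML-KO 5 (adjusted p up to 0.0838 by limma). Apoc4, a neighbour of Apoc1, was 1.60-fold lower (difference -0.68, SE 0.088, adjusted p = 0.00116 by limma). Saa2 was 16.3-fold lower (difference -4.03, SE 0.72, adjusted p = 0.00614 by limma), and its value ranged from 5.33 to 6.64 in Dbp-high and from 7.93 to 13.03 in Dbp-low livers. The highest liver was NML-KO 4, without which the difference was -3.21 (9.23-fold, adjusted p = 0.00706 by limma), and it was -2.12 among WT and -5.94 among NML-KO livers. By genotype Apom, a carrier of sphingosine 1-phosphate, differed by -0.20 (SE 0.12) and Apon by 0.20 (SE 0.13).

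Of 15 measured genes of particle assembly and secretion, 3 were called lower and 4 higher in Dbp-high livers, and 8 lay below 0, with a median of -0.013. Cideb, which takes part in lipidation of the particle, was 1.73-fold lower (difference -0.79, SE 0.054, adjusted p = 3.75e-05 by limma), and Pla2g12b, needed for its secretion, also 1.73-fold lower (difference -0.79, SE 0.066). P4hb, the partner subunit of the Mttp product, differed by 0.12 (SE 0.061) between genotypes and 0.082 (SE 0.059) between Dbp sets. Sort1, a sorting receptor, differed by -0.14 (SE 0.080) between genotypes.

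Of 11 measured genes of uptake and high density lipoprotein remodelling, 0 passed in limma between the Dbp sets, with a median of 0.080. Lipg, an endothelial lipase gene, had a difference of 1.07 (SE 0.32, adjusted p = 0.0550 by limma). With arrays left out in turn it passed only without WT 2 (1.43, adjusted p = 0.00744 by limma), and adjusted p reached 0.144 without WT 1. Lcat, which esterifies cholesterol on high density lipoprotein, differed by -0.23 (SE 0.086) between the sets. By genotype Lrpap1, a receptor chaperone gene, differed by -0.20 (SE 0.094) and Scarb1, the receptor for high density lipoprotein, by -0.17 (SE 0.12).

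Of 6 measured genes of plasma lipase control, 3 were called lower in Dbp-high livers and 0 higher, and 5 lay below 0, with a median of -0.21. Angptl8, a feeding-induced inhibitor of lipoprotein lipase, was 2.55-fold lower (difference -1.35, SE 0.33, adjusted p = 0.0263 by limma) and Lmf1, a lipase maturation factor gene, 1.35-fold lower (adjusted p = 0.0220 by limma). Neither call held with every array left out in turn: Angptl8 missed the threshold without WT 2, WT 3, WT 4, NML-KO 2, NML-KO 3 or NML-KO 5 (adjusted p up to 0.0923 by limma) and Lmf1 without WT 3, WT 5 or NML-KO 5 (up to 0.0743). Angptl8 also differed by -1.23 (SE 0.52) between genotypes, with an unadjusted p of 0.0389 and an adjusted p of 0.999 by limma. Gpihbp1, which anchors lipoprotein lipase, differed by -0.17 (SE 0.13) between genotypes.

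Of 17 measured transcription factors and cofactors known to act on apolipoprotein genes, 4 were called higher and 3 lower in Dbp-high livers, and 6 lay below 0, with a median of 0.14. Nr1d2, a clock repressor gene, was 5.81-fold higher (difference 2.54, SE 0.20) and Ppara, the receptor for fatty acids, 1.91-fold higher (difference 0.93, SE 0.090), with adjusted p of 8.54e-05 and 0.000232 by limma. Foxa2 and Srebf2 differed by -0.19 (SE 0.098) and -0.36 (SE 0.19) between genotypes, with an adjusted p of 0.999 by limma for both.

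Among 10801 other genes with a mean of at least 6, the patterns most like those of these genes were taken after the mean of each Dbp set was removed, by Pearson's r over the 10 livers. Ces2e and Galnt4 were nearest to Mttp (r = 0.97 for both), and Gabbr2 and Cadm3 to Apoa5 (r = 0.94 for both). Ndufs1 and Tubg1 were nearest to Apoa4 (r = 0.94 and 0.92), Rhbdd1 and Fam174b to Apoc3 (0.95 for both), and Sdhc and P2ry2 to Apoa2 (0.95 and 0.93). For Apoa1 they were Lcmt2 and Bptf (0.95 and 0.94), for Apob Ccni and Sh3glb1 (0.95 and 0.94), for Apoc1 Nprl2 and Kars (0.99 and 0.98) and for Apoe Aatf and Adcy6 (0.97 and 0.95). High values of r arise readily when so many genes are compared over 10 livers.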

How the data were processed

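RNA was extracted with Sepazol, fragmented and labelled with biotin, per the labels' protocols. The authors deposited intensity values on a linear scale for 28815 probe sets on 10 arrays, and the submitters' processing notes name genome build mm8. Background correction, normalization and summarization were not given in the sources used here. Genes were named by the platform table, 21780 probe sets having 1 symbol, with symbols updated through the gene ID. Probe sets with several symbols (1605) or none (5430) were left out, and the highest mean was taken where a gene had several. Log2 values were fitted with limma 3.58.1 in R 4.3.3 over 19935 genes, with Benjamini-Hochberg adjustment, without a filter on dim genes. NML-KO was compared with WT with no covariate. Dbp-high livers were compared with Dbp-low livers with genotype as a term. Within-set differences came from a model with 1 mean per genotype and set. The genotype and Dbp set models were run on simulated data, and this model was not.

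With 5 arrays a group, precision is limited by their number, and p-values rest on the spread between these livers. No array was a copy of another (smallest root mean square difference 0.165 on the log2 scale). The members and lists were chosen with earlier results of these data known. Named genes were the members, Rrp8, Dbp, in each list the 2 genes of lowest p in either comparison, and the 2 genes most like each member. Alternatives were other scalings, offset, filter, probe set rule, prior, array weights, blocks, sets and left-out arrays. Promoters came from RefSeq (GRCm38.p6), and gene order from the same assembly, which is not the build of the notes.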

Additional observations from a re-analysis of the deposited data

Results flagged for a closer look

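In 60 groups of 5 livers (30 named genes in each genotype), 4 values lay far from the rest of their genotype by Dixon's test, which flags about 5% of groups by chance. Apoa4 was 11.34 in NML-KO 5, against 9.82 to 10.14 in the other NML-KO livers. Apob was 13.42 in NML-KO 2, against 13.54 to 13.58, a gap that is small in absolute terms. Of the related genes, Sort1 was 8.44 in NML-KO 1, against 8.11 to 8.18, and Foxa2 was 6.52 in NML-KO 1, against 6.95 to 7.01.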

How the results depend on the processing

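In the genotype comparison 0 of the 9 genes passed under all 19 alternatives, and the count over all genes was 0 to 1 with an array left out (1 without NML-KO 4). Signs of differences near 0 turned. After quantile normalization Apob was -0.029 and Mttp 0.0096. With array weights Apoa4 was -0.0086. With the Dbp set as a term Apoa5 was -0.036, Apoc3 0.089 and Mttp 0.0042. With 1 array left out the values ran from -0.23 to 0.15 for Apoa4, -0.060 to 0.25 for Apoa5, -0.0093 to 0.035 for Apob, -0.16 to 0.066 for Apoc3 and -0.11 to 0.11 for Mttp. Between the Dbp sets 1625 to 2557 of all genes and 2 to 4 of the 9 passed with 1 array left out (1625 without NML-KO 5, 2 without WT 2 or WT 4), 1260 and 2 among WT livers, 971 and 0 among NML-KO livers. Mttp turned to 0.062 after quantile normalization and 0.19 among NML-KO livers, and ran from -0.25 to 0.083 with 1 array left out. Apoa5 also passed after quantile normalization, with array weights and with dim genes left out, while Apoe was lost with median centring, a trended and robust prior and dim genes left out. Sets taken from the first principal component were the same livers. With the replicate number of the titles as a block, 2 genes and 0 of the 9 passed between the Dbp sets, since only replicate 3 holds both sets. Same-numbered livers correlated at 0.44, 0.26, 0.35 and 0.54 in their deviations for replicates 1, 2, 4 and 5 and at -0.42 for replicate 3, whose livers lie in different Dbp sets. Only the genotype means were taken off for these deviations. They still hold the Dbp split, so this check cannot decide whether the numbers are a pairing. Only 1 of 5 WT livers matched its own number best. The numbers were not taken as a pairing, and whether they share a batch or day was not tested. The genotype count within Dbp-high livers was 0 to 23 genes with 1 array left out, and within Dbp-low livers 0 to 24, or 2 with dim genes left out, 3 with the trended and robust prior and 1 with array weights; the difference between the sets gave 0 to 13, and 0 of the 9 genes passed in any of these, which were added after the data were seen. The cause of each change was not tested.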

Other observations

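Sdhc, a subunit gene of mitochondrial complex II, was the gene most like Apoa2 over the livers and also lies near it on chromosome 1, 6 places away in the RefSeq gene order. It was 10.78, 10.73, 11.16, 11.38 and 11.43 in WT 1 to 5 and 10.43, 10.62, 10.56, 10.78 and 10.88 in NML-KO 1 to 5. Only the means of the Dbp sets were taken off before genes were matched to Apoa2, so the genotype difference stayed in r. A gene chosen this way tends to share the genotype gap of Apoa2, and Sdhc is no separate evidence of it. As for Apoa2, each NML-KO liver lay below each WT liver of its Dbp set. The genotype difference was -0.44 (SE 0.15, unadjusted p = 0.0149, adjusted p = 0.999 by limma), and it was -0.22 in Dbp-high and -0.49 in Dbp-low livers.

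Of the 5 measured neighbours on each side of Apoa2, 7 of 10 were lower in NML-KO livers, against 53.4% of all genes, and 4 were lower in both Dbp sets, against 27.3% of all genes. Besides Sdhc the 4 were Pcp4l1 (-0.023 in Dbp-high and -1.08 in Dbp-low livers), Nr1i3, the xenobiotic receptor CAR (-0.36 and -0.73), and Ppox, an enzyme of haem synthesis (-0.16 and -0.031). Tomm40l, which lies next to Apoa2, differed by -0.022 and 0.16. None passed the adjusted threshold in limma, and 1 of the 10, Sdhc, had an unadjusted p below 0.05. These neighbours were looked at after the values of Apoa2 and Sdhc had been seen, and no test of the region was made.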
